A study of Mus musculus with 8 samples.

Results

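Semaphorins, plexins, neuropilins, ephrins and Eph receptors, the ligands and receptors through which neighbouring cells repel or attract each other, were followed in sorted cells of mouse skin epidermis, both after ablation of the basal lineage and in controls. The members were all genes of the deposited table whose symbol begins with Sema and a digit, Plxn, Epha, Ephb, Efna or Efnb and a digit, or is Nrp1 or Nrp2. This gave 56 of the 32574 genes. They were 7 secreted class 3 semaphorins, 13 membrane semaphorins, 9 plexins, 3 antisense RNAs of the Plxna4 locus, 2 neuropilins, 9 Epha and 5 Ephb receptors, 5 Efna and 3 Efnb ephrins. All 56 were detected, that is above 0 in at least 1 of the 8 libraries, and 41 were above 0 in every library. A separate filter kept 41 members for testing, those reaching a share of 1e-06 of the library total in 2 or more libraries. The other 15 held 1 to 39 reads over all 8 libraries and never exceeded 10.7 normalised reads. They were Sema3g, Sema4f, Sema5b, Sema6b, Sema7a, Plxnb3, the antisense RNAs Plxna4os1, Plxna4os2 and Plxna4os3, the receptors Epha3, Epha5, Epha6, Epha7 and Epha8, and Efnb3.

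RNA sequencing covered 4 groups of 2 libraries each, all labelled as epithelial cells of skin epidermis. Lrig1 Abl and K14 Abl carry the genotype label of basal lineage ablation, whereas Lrig1 CTRL and K14 CTRL are labelled wild type. The study profiled these cells to look for the mechanism by which clones expand and the tissue becomes fluid. K14 is the protein of Krt14, a basal keratin, and Lrig1 is a marker of upper follicle stem cells. The sources used here do not give what K14 and Lrig1 stand for in the group names (the Cre driver, the sorted cells or the lineage that was ablated), nor the age of the mice, the ablating agent or the time after it. No label states that the 2 libraries of a group are from different mice. The p-values therefore describe a spread between libraries that was pooled over the 4 groups and may be technical.

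Semaphorins are secreted or membrane-bound ligands that signal through plexins, and most secreted class members also need a neuropilin as co-receptor. Plexins act on small GTPases and integrins, so that bound cells round up, retract or change direction. Ephrins are themselves tethered to the cell surface, by a lipid anchor in the A type and by a transmembrane stretch in the B type, and binding to Eph receptor tyrosine kinases sends signals into both touching cells. In epidermis these systems are known for setting cell contacts, migration and the boundaries between follicle and interfollicular cells.

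Depth was 6458636 to 11654135 reads per library, and 3 reads corresponded to 2.12 to 4.23 normalised reads, a floor for counting error only. The basal markers Krt5, Krt14, Trp63 and Col17a1 were abundant in every library labelled epithelial. Libraries of the ablation pairs stood apart from each other: Krt79, an upper follicle keratin, had 4961 and 15797 normalised reads in Lrig1 Abl, 28938 and 31438 in Lrig1 CTRL, 446 and 3443 in K14 Abl, and 1395 and 1247 in K14 CTRL. The summed suprabasal markers (7 of 7 in the table) were 31622 to 32398 in Lrig1 Abl, 103250 to 117770 in Lrig1 CTRL, 53656 to 79676 in K14 Abl and 63054 to 67614 in K14 CTRL. The summed upper follicle markers (5 of 5) were 8569 to 23164 in Lrig1 Abl, 37072 to 39604 in Lrig1 CTRL, 2507 to 6991 in K14 Abl and 5340 to 5400 in K14 CTRL. Endothelial Cdh5 was 93.1 and 112.8 in Lrig1 CTRL and at most 8.58 elsewhere, and Vwf was 182.8 and 193 in Lrig1 CTRL and at most 20.4 elsewhere. The Schwann cell factor Sox10 and the T cell gene Cd3d stayed at or below 4.78 and 1.59 in all libraries. Over all 8 libraries the other marker lists summed to 90747 to 214960 normalised reads for basal keratinocytes, 85.3 to 300.1 for fibroblasts, 756 to 1446 for endothelial and mural cells (Cspg4 alone 665 to 1117), and 190.2 to 1535 for myeloid and Langerhans cells. They summed to 96.3 to 717 for T cells (mostly Thy1), 311 to 581 for melanocytes, 36.1 to 132.9 for Schwann cells and nerve, 4.29 to 25.6 for Merkel cells, and 2465 to 6872 for hair follicle bulge and germ. In such bulk libraries, fewer cells of a type and less RNA per cell cannot be told apart.

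Among the ligands, the ephrin-B gene Efnb2 was the most abundant member per length of exon. It averaged 533 normalised reads per kb over the 8 libraries. The lipid-anchored ephrins Efna1 and Efna3 averaged 256 and 192, and Efnb1 187. The secreted semaphorins were led by Sema3c at 169 and Sema3f at 162 per kb, and the membrane semaphorins by Sema4b at 145. Sema3a, the founding repulsive ligand of the family, averaged 0.534 per kb.

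Among the receptors, Plxnb2 and Plxna1 led with 342 and 311 normalised reads per kb. Plxnb1, whose best known ligand is Sema4d, followed at 170.1, while Plxna4, Plxnc1 and Plxnd1 averaged 1.30, 2.80 and 8.21. Nrp2 averaged 27.7 per kb and Nrp1, the co-receptor of Sema3a, 3.37. Ephb6, an Eph receptor whose kinase domain lacks activity, had 309, more per kb than Epha2 with 266 and Epha1 with 216. The plot of levels per kb shows the spread within each family for all tested members.

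**Figure D1:**
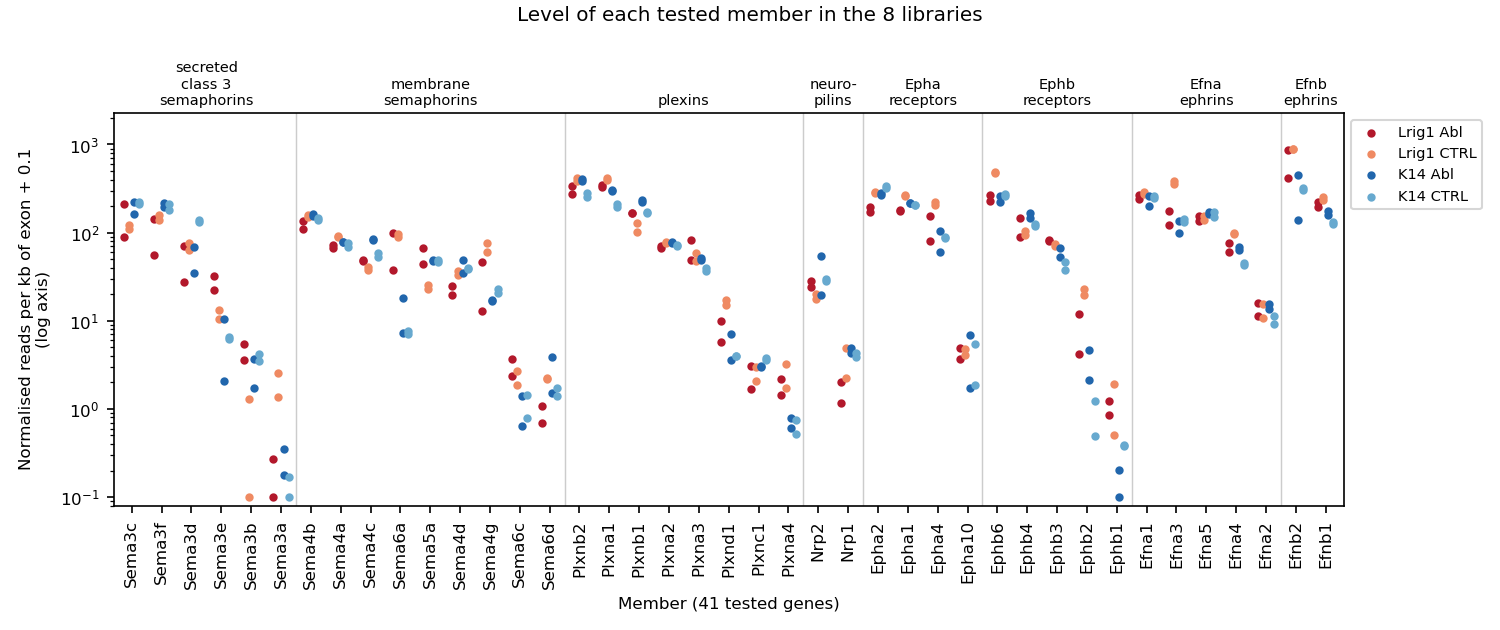
Normalised reads per kb of exon on a log axis, with the small constant named on the axis added so that zeros can be drawn, for the 41 tested members ordered by family and mean level; each point is 1 library and colours mark the 4 groups. Efnb2, Plxnb2, Plxna1 and Ephb6 lie highest, and Sema3a, Ephb1 and Plxna4 lie lowest.

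The comparison of Lrig1 Abl with Lrig1 CTRL asks what ablation did to these genes in the Lrig1 libraries. Ephb6, Epha2, Efna3 and Sema3a were lower and Sema5a was higher after ablation, which makes 5 of 41 tested members past a limma adjusted p of 0.05, beside 4.06% of all 18140 tested genes. The 4 lower members stand beside 3.3% of tested genes that were lower, and the 1 higher member beside 0.766% that were higher. Of the 4, Sema3a reached the filter only in the Lrig1 CTRL libraries, so that the filter itself required its difference. Ephb6 (ENSMUSG00000029869, chromosome 6, 41605482 to 41620509, plus strand; GRCm38) had normalised read counts of 871 and 997 in Lrig1 Abl, 1795 and 1848 in Lrig1 CTRL, 839 and 970.2 in K14 Abl and 990.2 and 1025 in K14 CTRL. Both Lrig1 CTRL libraries lay above the 6 others, which overlapped. The log2 difference of Lrig1 Abl minus Lrig1 CTRL, taken on log2(normalised reads + 1), was -0.97 ± 0.14 (SE; limma adjusted p = 0.0134).

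Epha2 (ENSMUSG00000006445, chromosome 4, 141301240 to 141329384, plus strand), an Eph receptor prominent in keratinocytes that binds ephrin-A1, had 797 and 904 in Lrig1 Abl, 1341 and 1305 in Lrig1 CTRL, 1233 and 1324 in K14 Abl and 1486 and 1572 in K14 CTRL. Both Lrig1 Abl libraries were lower than all 6 other libraries, and the log2 difference was -0.64 ± 0.13 (SE; limma adjusted p = 0.041). Its relative Epha1 had 717 and 693 in Lrig1 Abl, 1043 and 1018 in Lrig1 CTRL, 855 and 862 in K14 Abl and 805 and 806 in K14 CTRL, again with both Lrig1 Abl libraries below all others, and its difference of -0.55 ± 0.12 missed the threshold (limma adjusted p = 0.0507). Epha4, which binds both ephrin types, had 649.6 and 1254 in Lrig1 Abl, 1679 and 1810.0 in Lrig1 CTRL, 842 and 489.9 in K14 Abl and 708 and 714 in K14 CTRL. Its Lrig1 Abl libraries lay apart from each other, though below both Lrig1 CTRL libraries, and its difference of -0.95 ± 0.33 did not pass.

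Efna3 (ENSMUSG00000028039, chromosome 3, 89313899 to 89322965, minus strand), an ephrin-A ligand, had 294 and 423 in Lrig1 Abl, 938 and 857 in Lrig1 CTRL, 238 and 329 in K14 Abl and 321 and 346 in K14 CTRL. It was high in both Lrig1 CTRL libraries, and the 3 other groups overlapped. The log2 difference was -1.34 ± 0.22 (SE; limma adjusted p = 0.0185). An antisense gene, Gm15998, shares 14.1% of the exon bases of Efna3, and reads there are uncertain because no source used here gives the strand setting of the counting.

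Sema5a (ENSMUSG00000022231, chromosome 15, 32244810 to 32696341, plus strand), a transmembrane semaphorin with thrombospondin repeats, went the other way. It had 1242 and 812 in Lrig1 Abl, 426 and 475 in Lrig1 CTRL, 919 and 883 in K14 Abl and 866 and 917 in K14 CTRL. Both Lrig1 CTRL libraries were lower than the 6 others. The log2 difference was 1.16 ± 0.20 (SE; limma adjusted p = 0.0227). Sema3a (ENSMUSG00000028883, chromosome 5, 13125414 to 13602565, plus strand) had 0 and 2.39 in Lrig1 Abl, 17.5 and 33.8 in Lrig1 CTRL, 3.54 and 1.07 in K14 Abl and 0 and 0.985 in K14 CTRL, near or below the floor of 3 reads outside Lrig1 CTRL. It entered the tests through the Lrig1 CTRL libraries, so that the filter itself required a difference, and the fit gave -3.78 ± 0.84 (SE; limma adjusted p = 0.0483). Counted as reads, Sema3a had 3 in Lrig1 Abl and 39 in Lrig1 CTRL, a ratio of 0.0506 after scaling (95% exact interval 0.0100 to 0.159, counting error only). Because of the filter, nothing is concluded from the interval. The endothelial markers of Lrig1 CTRL given above moved with Sema3a, and their part in this result was not tested.

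For 4 of these genes the 250 bases before the RefSeq start site (GRCm38.p6; 47 of 56 members matched in that table) are shown 5′ to 3′ on the gene's strand, because they are the windows upstream of abundant members called in this comparison, 3 lower and 1 higher. Capitals mark matches, on either strand, to TGANTCA (AP-1), TGACGTCA (CRE), GGAATG (TEAD) or GGGCGG (GC box), with overlapping matches counted apart.
Ephb6 (chr6:41605261-41605510, plus strand): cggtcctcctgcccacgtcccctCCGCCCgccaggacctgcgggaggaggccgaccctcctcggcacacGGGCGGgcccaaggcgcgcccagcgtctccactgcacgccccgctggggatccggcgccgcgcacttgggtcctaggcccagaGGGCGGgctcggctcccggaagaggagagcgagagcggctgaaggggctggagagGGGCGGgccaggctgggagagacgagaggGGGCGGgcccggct
Epha2 (chr4:141300971-141301220, plus strand): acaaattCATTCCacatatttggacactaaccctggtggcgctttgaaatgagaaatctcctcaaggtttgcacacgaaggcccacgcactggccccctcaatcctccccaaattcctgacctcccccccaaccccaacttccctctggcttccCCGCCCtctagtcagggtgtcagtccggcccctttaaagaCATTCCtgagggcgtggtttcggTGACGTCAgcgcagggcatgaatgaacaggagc
Efna3 (chr3:89322940-89323189, minus strand): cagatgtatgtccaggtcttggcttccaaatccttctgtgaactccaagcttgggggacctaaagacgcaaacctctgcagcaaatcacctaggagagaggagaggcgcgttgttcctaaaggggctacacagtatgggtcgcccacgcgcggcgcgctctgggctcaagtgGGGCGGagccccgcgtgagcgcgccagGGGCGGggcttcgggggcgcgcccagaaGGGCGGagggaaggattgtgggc
Sema5a (chr15:32244563-32244812, plus strand): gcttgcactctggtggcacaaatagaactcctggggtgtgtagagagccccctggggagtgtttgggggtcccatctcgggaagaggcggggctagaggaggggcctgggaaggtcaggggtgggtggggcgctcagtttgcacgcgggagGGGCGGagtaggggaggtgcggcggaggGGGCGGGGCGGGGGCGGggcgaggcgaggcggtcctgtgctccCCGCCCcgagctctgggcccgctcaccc

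Epha2 held 1 CRE match, 2 TEAD matches and 1 GC box match. Ephb6 held 5 GC box matches, Efna3 held 3 and Sema5a held 5, some of them overlapping, and none of these 3 held a CRE or TEAD match. No window held the AP-1 letters. Of all 32851 windows of this length, 6.749% held AP-1, 1.546% CRE, 12.64% TEAD and 32.74% GC box letters. A match describes letters and is neither a binding site nor a cause.

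The remaining 36 tested members did not pass in the Lrig1 ablation comparison. Of all 41, 13 had a positive and 28 a negative difference, and the median was -0.34 on the log2 scale, against -0.02 over all tested genes. At an unadjusted p under 0.05 there were 19, beside 20.1% of all tested genes. Ephb2, a receptor of ephrin-B ligands, had 51.5 and 151 in Lrig1 Abl, 285 and 248 in Lrig1 CTRL, 58.0 and 25.7 in K14 Abl and 14.2 and 4.92 in K14 CTRL, and its difference was -1.58 ± 0.63 (SE; limma adjusted p = 0.211). Its Lrig1 Abl libraries lay apart from each other but both below Lrig1 CTRL. Sema3b was low throughout, with 16.9 and 25.5 in Lrig1 Abl, 0 and 5.64 in Lrig1 CTRL, 7.78 and 17.2 in K14 Abl and 16.2 and 19.7 in K14 CTRL, and its difference of 3.08 ± 0.84 did not pass (limma adjusted p = 0.0882). Sema4g, a membrane semaphorin, had 110.0 and 398 in Lrig1 Abl, 655 and 516 in Lrig1 CTRL, 146 and 144 in K14 Abl and 179 and 197 in K14 CTRL, where both Lrig1 Abl libraries were below both Lrig1 CTRL libraries and the difference was -1.47 ± 0.49 (SE; limma adjusted p = 0.144).

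For several abundant ligands the 2 Lrig1 Abl libraries lay far apart, and for Efnb2 the 2 K14 Abl libraries did too. Efnb2 (ENSMUSG00000001300, chromosome 8, 8617434 to 8661242, minus strand) had 2851 and 5945 in Lrig1 Abl, 6042 and 6077 in Lrig1 CTRL, 959 and 3125 in K14 Abl and 2073 and 2175 in K14 CTRL. Lrig1 Abl 2 lay close to both Lrig1 CTRL libraries and Lrig1 Abl 1 far below, so the difference of -0.56 ± 0.51 was within the spread (limma adjusted p = 0.601). Sema3c had 1520.2 and 635 in Lrig1 Abl, 782 and 863 in Lrig1 CTRL, 1609 and 1165 in K14 Abl and 1522 and 1577 in K14 CTRL, and there Lrig1 Abl 1 was the higher. Sema3f, the ligand of Nrp2, had 748 and 291 in Lrig1 Abl, 819.5 and 715 in Lrig1 CTRL, 1126 and 1014 in K14 Abl and 949.6 and 1087 in K14 CTRL, also with Lrig1 Abl 1 the higher. The summed upper follicle markers were 8569 in Lrig1 Abl 1 and 23164 in Lrig1 Abl 2, in the direction of Efnb2 and opposite to Sema3c and Sema3f. Krt79 was 4961 in Lrig1 Abl 1 and 15797 in Lrig1 Abl 2. Of that list only Lgr6 did not follow, with 926 in Lrig1 Abl 1 and 904 in Lrig1 Abl 2. The summed basal markers were 209180 in Lrig1 Abl 1 and 90747 in Lrig1 Abl 2, in the direction of Sema3c and Sema3f. The part of either list in the split was not tested.

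Among the plexins, Plxnb1 had 1612 and 1589 in Lrig1 Abl, 1233 and 985 in Lrig1 CTRL, 2261 and 2123 in K14 Abl and 1608 and 1644 in K14 CTRL. Plxnb2 had 2633 and 2091 in Lrig1 Abl, 3179 and 2955 in Lrig1 CTRL, 3157 and 2967 in K14 Abl and 1971 and 2176 in K14 CTRL. Both Lrig1 Abl libraries were above Lrig1 CTRL for Plxnb1 and below it for Plxnb2, with differences of 0.54 ± 0.15 and -0.39 ± 0.16 that did not pass (limma adjusted p = 0.0898 and 0.228). Plxna2 had the smallest ratio of highest to lowest value among the tested members, between 1144 and 1334 normalised reads. Sema4b stayed between 622 and 929 and Efna5 between 544 and 690.

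The summed upper follicle and suprabasal markers were lower in both Lrig1 Abl than in both Lrig1 CTRL libraries, along with Ephb6, Efna3 and Epha2. Of the 5 upper follicle markers 1, Lgr6, was higher, with 926 and 904 in Lrig1 Abl and 346 and 364 in Lrig1 CTRL. It was also the only marker of that list past the threshold. The summed myeloid and Langerhans markers were also lower, with 252 and 190.2 in Lrig1 Abl and 891 and 1199.6 in Lrig1 CTRL. The part of these lists in the calls was not tested. The 5 calls were lost without K14 CTRL 1, without K14 CTRL 2, without Lrig1 CTRL 1, without Lrig1 CTRL 2, or with the Lrig1 libraries fitted alone. Without Lrig1 Abl 1 or without Lrig1 Abl 2 more members passed, and so did more of all tested genes. By edgeR 3 of them passed (Ephb6, Efna3 and Sema5a), and by DESeq2 these and Epha2.

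**Figure D2:**
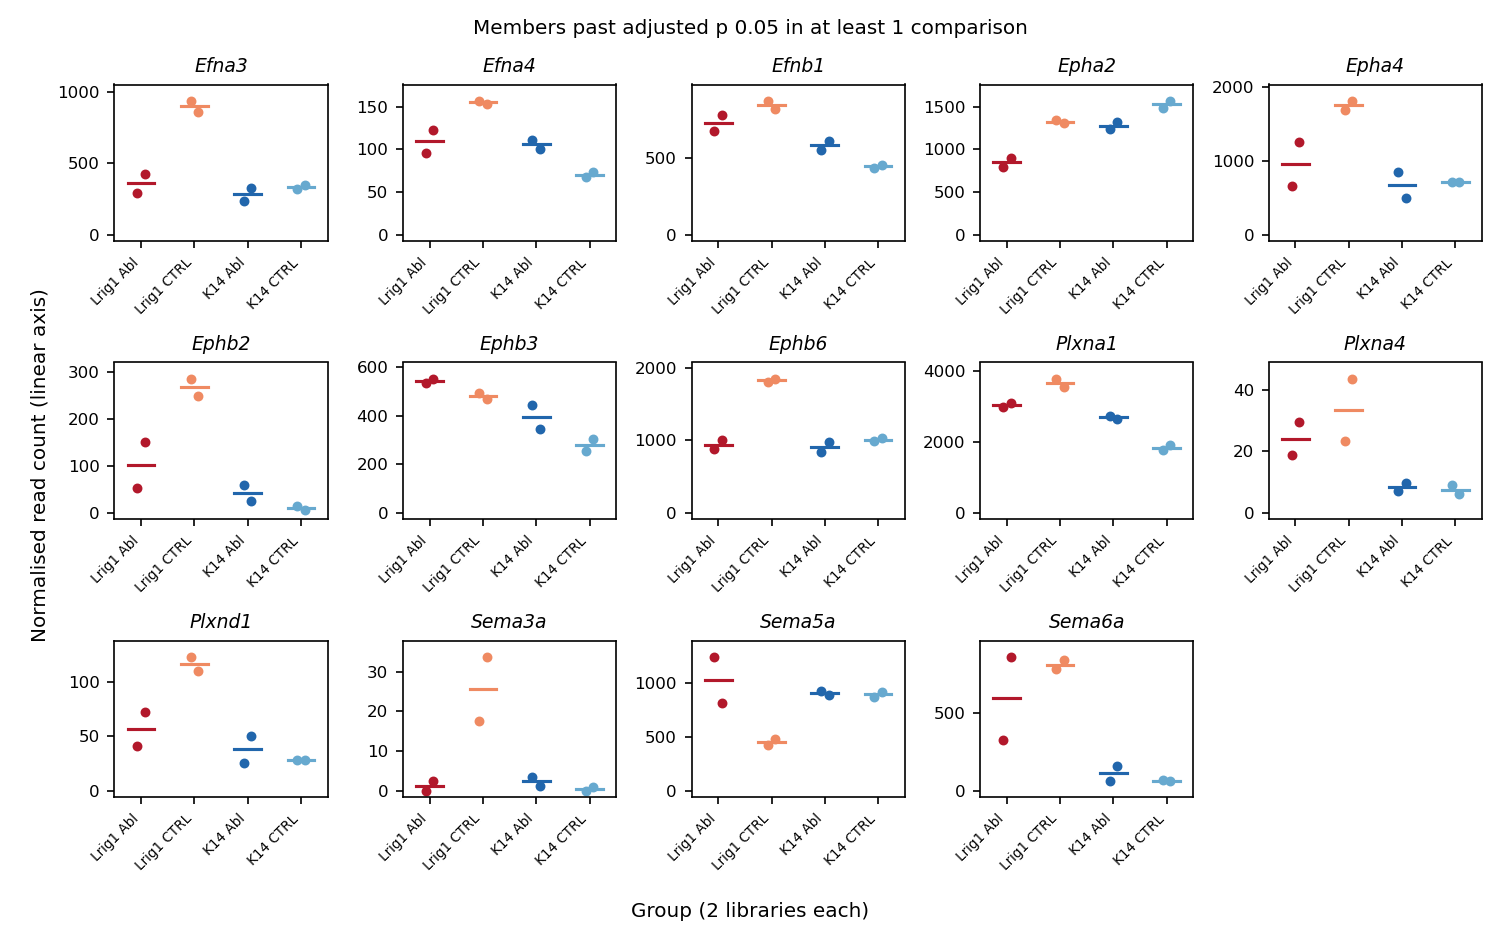
Normalised reads on linear axes for the 14 members past adjusted p 0.05 in at least 1 comparison; points are libraries and bars are means of 2. Lrig1 CTRL is highest for Ephb6 (1795 and 1848) and Efna3, and lowest for Sema5a, while Epha2 is lowest in Lrig1 Abl.

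Ablation in the K14 libraries gave no call among these genes. The comparison of K14 Abl with K14 CTRL had 0 of 41 tested members past the threshold in limma, beside 0.187% of all tested genes, with 9 at an unadjusted p under 0.05, beside 12.8%. The same count was 0 with edgeR, beside 32 of all tested genes, and 2 with DESeq2, beside 220 of all tested genes. The 2 were Ephb2 and Sema3d. Sema3d (ENSMUSG00000040254, chromosome 5, 12383385 to 12588948, plus strand), a secreted semaphorin, had 612 and 235 in Lrig1 Abl, 552 and 648 in Lrig1 CTRL, 590.1 and 301 in K14 Abl and 1127 and 1183 in K14 CTRL. Both K14 CTRL libraries stood above all 6 others, the K14 Abl libraries lay apart from each other, and the difference was -1.45 ± 0.44 (SE; limma adjusted p = 0.265). Ephb2 had the largest difference in the positive direction, 2.06 ± 0.63 (SE; limma adjusted p = 0.265), with 58.0 and 25.7 in K14 Abl and 14.2 and 4.92 in K14 CTRL. The K14 Abl and K14 CTRL libraries did not overlap, at no more than 58.0 normalised reads.

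The other 7 at an unadjusted p under 0.05 had positive differences. They were the receptors Plxna1 (0.56), Plxnb2 (0.56), Plxnb1 (0.43) and Ephb3 (0.50), and the ligands Sema4c (0.56), Efna4 (0.58) and Efnb1 (0.39), all as log2 differences of K14 Abl minus K14 CTRL. Plxna1 had 2735 and 2662 in K14 Abl and 1763 and 1900.2 in K14 CTRL, and its adjusted p in limma was 0.181. Sema4c, a ligand of plexin-B2, had 217 and 224 in Lrig1 Abl, 187 and 172 in Lrig1 CTRL, 383 and 382 in K14 Abl and 246 and 273 in K14 CTRL, so that both K14 Abl libraries exceeded all 6 others (limma adjusted p = 0.219). Efna4 had 111 and 101 in K14 Abl and 68.0 and 72.9 in K14 CTRL and did not pass either (limma adjusted p = 0.32). Reads of Plxna1, Efna4 and Sema4c are uncertain where other genes overlap them, which holds for 10.7%, 10.5% and 7.27% of their exon bases, and for 6.01% in Epha1.

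Over the plexins, 7 of 8 tested members had a positive difference in K14, with a median of 0.36, while 4 of 6 tested class 3 semaphorins had a negative one, with a median of -0.31. None of these passed, and the median over all 41 was 0.11 beside -0.0018 over all tested genes. Some members passed without Lrig1 Abl 1 or without Lrig1 Abl 2, where more of all tested genes passed too, and none did without any other library.

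**Figure D3:**
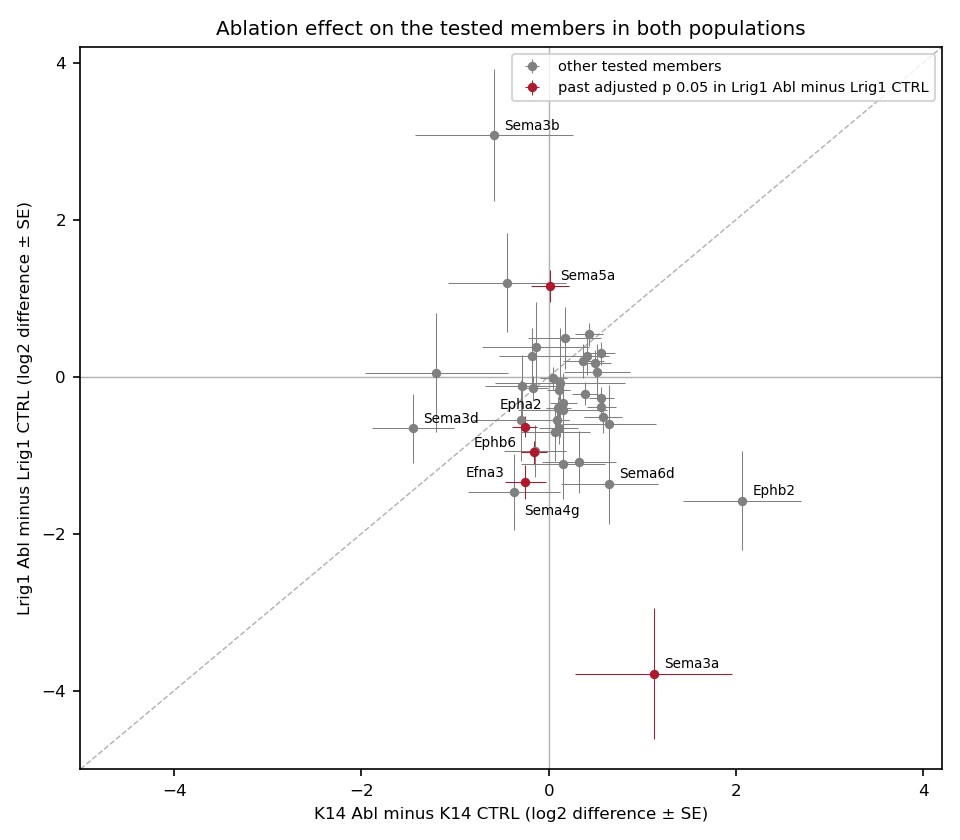
Log2 difference of ablation minus control, ± SE, in the K14 libraries (x axis) and the Lrig1 libraries (y axis) for the 41 tested members; the dashed line marks equal effects. Red points passed in Lrig1 Abl minus Lrig1 CTRL and lie at small K14 differences, except Sema3a, which was near the floor outside Lrig1 CTRL.

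With both populations averaged, the ablation effect passed for 3 of 41 members, beside 2.83% of all tested genes. All 3 were lower, beside 2.02% of tested genes lower, and 0 were higher, beside 0.805%. Each of them had also passed in Lrig1, and none in K14. They were Ephb6 at -0.56 ± 0.10 (SE; limma adjusted p = 0.0288), Efna3 at -0.80 ± 0.16 (SE; limma adjusted p = 0.0404) and Epha2 at -0.45 ± 0.09 (SE; limma adjusted p = 0.0496). All 3 calls were lost without either K14 CTRL library, without either Lrig1 CTRL library and without K14 Abl 1. Without either Lrig1 Abl library more members passed, and so did more of all tested genes. In K14 the ablation differences were -0.16 ± 0.14 for Ephb6, -0.25 ± 0.22 for Efna3 and -0.26 ± 0.13 for Epha2. A response of these 3 members in both populations is thus not shown. Sema4g and Sema3d had the mean differences -0.92 ± 0.35 and -1.05 ± 0.31 and did not pass (limma adjusted p = 0.2 and 0.119).

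Whether ablation acted differently in the populations was tested as the difference of the effects, Lrig1 minus K14. No member passed, 0 of 41 beside 0.198% of all tested genes, with 16 at an unadjusted p under 0.05 in limma (beside 15%). By edgeR 0 members passed, beside 32 of all tested genes, and by DESeq2 2, beside 308 of all tested genes. The 5 members called in Lrig1 are therefore not shown to respond differently from K14: the differences were -0.81 ± 0.20 (SE; limma adjusted p = 0.136) for Ephb6, -1.10 ± 0.31 (SE; limma adjusted p = 0.179) for Efna3 and 1.14 ± 0.28 (SE; limma adjusted p = 0.136) for Sema5a. Ephb2 had -3.64 ± 0.89 (SE; limma adjusted p = 0.132), since its K14 effect was positive and its Lrig1 effect negative, and neither effect passed. Of the 41 differences, 30 were negative. Some members passed without Lrig1 Abl 1, without Lrig1 Abl 2 and without K14 Abl 2, where more of all tested genes passed too.

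Between the populations without ablation, nearly all called members were higher in the Lrig1 libraries, led among members well above the floor by Ephb2 and Sema6a. In Lrig1 CTRL against K14 CTRL, 13 of 41 tested members passed, beside 8.79% of all tested genes; 12 were higher, beside 6.52%, and 1 was lower, beside 2.27%. This comparison shares the Lrig1 CTRL libraries with the Lrig1 ablation comparison, so the values of Ephb6, Efna3, Sema3a and Sema5a in those libraries enter both. Sema3a, 1 of the 12 higher members, reached the filter only in the 2 Lrig1 CTRL libraries, so that the filter itself required a difference here too.

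Of the ligands, Sema6a (ENSMUSG00000019647, chromosome 18, 47235598 to 47368870, minus strand), a transmembrane semaphorin that binds plexin-A2 and plexin-A4, had 328 and 861 in Lrig1 Abl, 779 and 840.1 in Lrig1 CTRL, 62.3 and 159.7 in K14 Abl and 66.0 and 61.0 in K14 CTRL. Every Lrig1 library exceeded every K14 library, and the log2 difference between the CTRL groups was 3.65 ± 0.50 (SE; limma adjusted p = 0.00634). Sema3a had 39 reads in Lrig1 CTRL and 1 in K14 CTRL, a scaled ratio of 49.7 (95% exact interval 8.42 to 2014, counting error only). Its fitted difference was 4.17 ± 0.84 (SE), with a limma adjusted p of 0.0223. Because the filter itself required a difference, nothing is concluded from the interval or the adjusted p. The ephrin-A ligands Efna3 and Efna4 were higher by 1.43 ± 0.22 and 1.13 ± 0.21, with Efna4 at 95.8 and 123 in Lrig1 Abl, 157 and 154 in Lrig1 CTRL, 111 and 101 in K14 Abl and 68.0 and 72.9 in K14 CTRL. Efnb1 (ENSMUSG00000031217, chromosome X, 99136130 to 99148991, plus strand), a transmembrane ephrin, had 674 and 777 in Lrig1 Abl, 869.6 and 813 in Lrig1 CTRL, 548 and 610.0 in K14 Abl and 432 and 453 in K14 CTRL, which put the 4 groups in an order without overlap, and its CTRL difference was 0.93 ± 0.14 (SE; limma adjusted p = 0.00931). Efnb2, although 6042 and 6077 in Lrig1 CTRL and 2073 and 2175 in K14 CTRL, had a difference of 1.51 ± 0.51 that did not pass, and its ablation libraries spread more widely than its CTRL libraries (limma adjusted p = 0.117).

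The lower member was Sema5a, with 426 and 475 in Lrig1 CTRL and 866 and 917 in K14 CTRL and a difference of -0.98 ± 0.20 (SE; limma adjusted p = 0.0235). Sema3d, Sema3c and Sema3b also had negative differences, -0.95 ± 0.44, -0.91 ± 0.36 and -2.87 ± 0.84, and did not pass.

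Of the receptors, Ephb2 (ENSMUSG00000028664, chromosome 4, 136647539 to 136835988, minus strand) had the largest difference, 4.81 ± 0.63 (SE; limma adjusted p = 0.00578), from 285 and 248 in Lrig1 CTRL and 14.2 and 4.92 in K14 CTRL. Epha4 was higher by 1.29 ± 0.33 and Ephb6 by 0.85 ± 0.14. Ephb3, another receptor of ephrin-B ligands, had 534 and 553 in Lrig1 Abl, 495 and 471 in Lrig1 CTRL, 445 and 346 in K14 Abl and 253 and 305 in K14 CTRL, again 4 groups without overlap, and a CTRL difference of 0.79 ± 0.17 (SE; limma adjusted p = 0.0297). Ephb4, the receptor best known for binding ephrin-B2, had a difference of -0.28 ± 0.22 and did not pass. Epha2 and Epha1 did not pass either, with -0.21 ± 0.13 and 0.35 ± 0.12.

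Plxna1 (ENSMUSG00000030084, chromosome 6, 89316314 to 89362620, minus strand), a signalling partner of neuropilins, had 2988 and 3105 in Lrig1 Abl, 3792 and 3564 in Lrig1 CTRL, 2735 and 2662 in K14 Abl and 1763 and 1900.2 in K14 CTRL. The 4 groups did not overlap, with Lrig1 CTRL highest and K14 CTRL lowest, and the CTRL difference was 1.01 ± 0.13 (SE; limma adjusted p = 0.00598). Plxnd1, the receptor of Sema3e and prominent in endothelium, had 40.8 and 72.4 in Lrig1 Abl, 123 and 110.0 in Lrig1 CTRL, 25.5 and 50.4 in K14 Abl and 28.4 and 28.6 in K14 CTRL and a CTRL difference of 1.99 ± 0.39 (SE; limma adjusted p = 0.0206). Plxna4, a receptor of Sema6a, had 18.6 and 29.5 in Lrig1 Abl, 23.3 and 43.7 in Lrig1 CTRL, 7.08 and 9.65 in K14 Abl and 9.14 and 5.91 in K14 CTRL, with a difference on the log2 scale of 1.98 ± 0.48 (SE; limma adjusted p = 0.0414). Both Lrig1 groups exceeded both K14 groups for Plxna4, at low values. Neither neuropilin passed, with -0.33 ± 0.45 for Nrp1 (0.23 without Lrig1 CTRL 1) and -0.63 ± 0.39 for Nrp2. The endothelial markers that were higher in Lrig1 CTRL (Cdh5, Vwf, Emcn, Kdr and Tek) move with Plxnd1 and Sema3a here. The 7 suprabasal markers and the summed upper follicle markers move with all 13, with Sema5a in the opposite direction. Of the 5 upper follicle markers 4 were higher. Lgr6 was lower, with 346 and 364 in Lrig1 CTRL and 582 and 665 in K14 CTRL. The summed bulge and germ markers also move so, with 6716 and 6872 in Lrig1 CTRL and 2927 and 3006 in K14 CTRL. So do the summed myeloid markers, with 891 and 1199.6 in Lrig1 CTRL and 460.1 and 571 in K14 CTRL. Among tested markers of these 2 lists, 5 of 6 and 6 of 8 were higher, while Cdh3 and the 2 entries of Itgam were lower. The summed basal markers ran the way of Sema5a, with 107220 and 116750 in Lrig1 CTRL and 180520 and 177690 in K14 CTRL. Of the 7 basal markers 1, Krt15, went the other way, with 5327 and 5895 in Lrig1 CTRL and 3151 and 3205 in K14 CTRL. It was also the only basal marker past the threshold. The part of these cell types in the calls was not tested.

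As log2 differences, the 41 members had a median of 0.47 between the CTRL groups, beside -0.0049 over all tested genes. Of the 13 calls, edgeR made 12 (not Epha4) and DESeq2 12 (not Plxna4). Only Ephb2 kept its call without K14 CTRL 1, and no member passed without K14 CTRL 2, Lrig1 CTRL 1 or Lrig1 CTRL 2. Without either Lrig1 Abl library more members passed, and so did more of all tested genes.

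**Figure D4:**
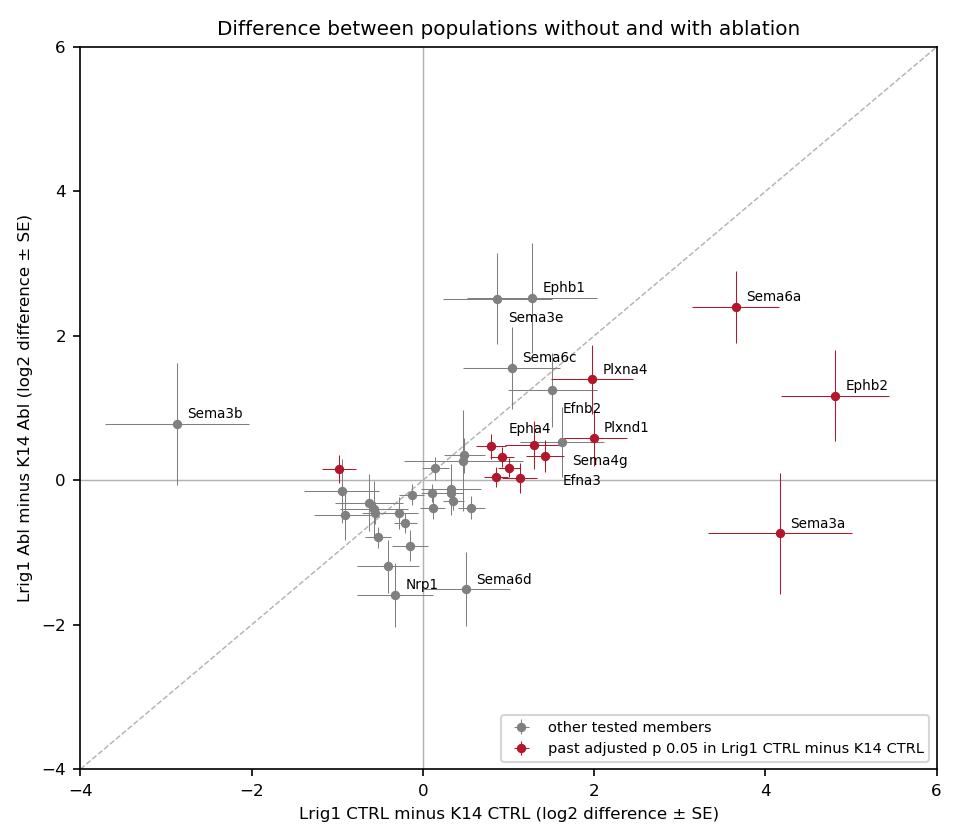
Log2 difference of Lrig1 minus K14, ± SE, between the CTRL groups (x axis) and between the Abl groups (y axis) for the 41 tested members; the dashed line marks equal differences. Ephb2 has 4.81 between the CTRL groups and 1.17 between the Abl groups, and Sema6a has 3.65 and 2.40.

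After ablation, no member passed between the populations. Lrig1 Abl against K14 Abl had 0 of 41 past the threshold, beside 0.667% of all tested genes. In limma 17 were at an unadjusted p under 0.05, beside 16.4%. By edgeR 0 members passed, and by DESeq2 4. Both of these methods also called more of all tested genes than limma did. Sema6a had 328 and 861 in Lrig1 Abl and 62.3 and 159.7 in K14 Abl, where every Lrig1 Abl library exceeded every K14 Abl library, and a difference of 2.40 ± 0.50 (SE; limma adjusted p = 0.0882). Sema3e (ENSMUSG00000063531, chromosome 5, 14025276 to 14256689, plus strand), the secreted ligand of plexin-D1, had 205 and 302 in Lrig1 Abl, 121 and 95.9 in Lrig1 CTRL, 18.4 and 97.6 in K14 Abl and 59.9 and 57.1 in K14 CTRL, with a difference on the log2 scale of 2.51 ± 0.63 (SE; limma adjusted p = 0.132). Both Lrig1 Abl libraries were above all 6 others for Sema3e. Ephb1 had 5.33 and 7.96 in Lrig1 Abl, 12.8 and 2.82 in Lrig1 CTRL, 0.708 and 0 in K14 Abl and 2.03 and 1.97 in K14 CTRL. That amounts to 16 reads in Lrig1 Abl and 1 in K14 Abl, a scaled ratio of 15.8 (95% exact interval 2.45 to 661, counting error only). Its difference on the log2 scale was 2.53 ± 0.76 (SE; limma adjusted p = 0.183). Ephb1 reached the filter only in Lrig1 CTRL 1 and Lrig1 Abl 2. The filter itself thus favoured higher values in the Lrig1 libraries, and nothing is concluded from the interval.

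Sema4c and Nrp1 had negative differences between the Abl groups, -0.79 ± 0.15 and -1.59 ± 0.45, and Sema4c came closest to the threshold (limma adjusted p = 0.067). Some members passed without Lrig1 Abl 1 and without K14 Abl 2, where more of all tested genes passed too, and none did without any other library. The median over the 41 members was 0.03, beside -0.02 over all tested genes.

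A further 12 tested members passed in no comparison. Among the ligands, Efna1 ranged over the 8 libraries from 368 to 529 normalised reads, Efna2 from 19.3 to 33.7, Sema4a from 364 to 498 and Sema4d from 151 to 379. Sema6c and Sema6d, relatives of Sema6a, ranged from 3.22 to 21.5 and from 6.21 to 40.3. Among the receptors, Ephb4 ranged from 416 to 765, Epha10, whose kinase is also inactive, from 11.8 to 49.5, Plxna3 from 285 to 652, and Plxnc1, the receptor of Sema7a, from 13.3 to 30.5. Nrp1 ranged from 10.3 to 47.4 and Nrp2 from 207 to 639, where the highest value of Nrp2 was that of K14 Abl 2, above all other libraries. The map of deviations by library shows all 41 tested members together.

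**Figure D5:**
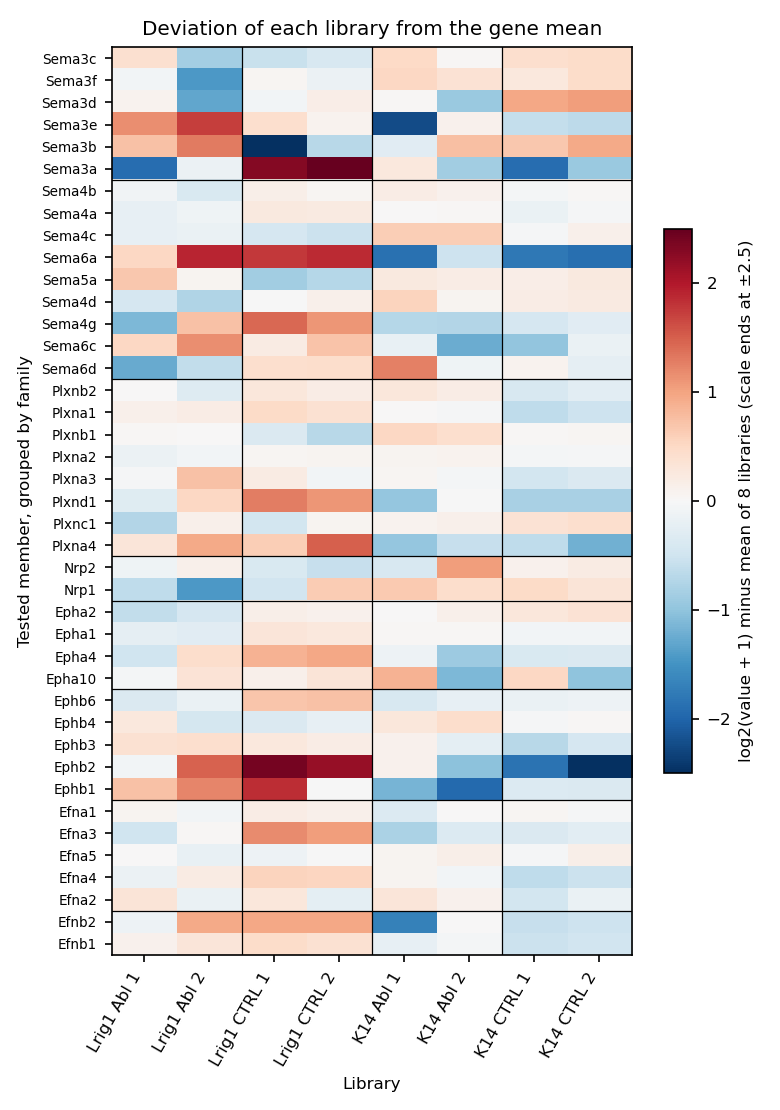
Deviation of log2(normalised reads + 1) in each library from the mean of 8 libraries, for the 41 tested members grouped by family; red is above and blue below the mean. Sema6a and Ephb2 are red in Lrig1 CTRL and Lrig1 Abl 2 and blue in K14 CTRL, and Plxna2 and Efna5 are near white throughout.

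Among the genes that carry these signals inside the cell, Tiam1, Gipc1 and Kdr were lower in Lrig1 Abl. Of 30 tested semaphorin and plexin transducers (32 listed), 0 passed in K14 by limma (5 at an unadjusted p under 0.05, beside 12.8% of all tested genes) and 3 were lower in Lrig1 Abl than in Lrig1 CTRL, beside 3.3% of tested genes lower. These were Tiam1, an exchange factor of Rac, at -0.69 ± 0.14 (SE; limma adjusted p = 0.0419), Gipc1, an adaptor of plexin-D1 and neuropilin-1, at -0.78 ± 0.15 (SE; limma adjusted p = 0.0286), and Kdr, a VEGF receptor that neuropilins bind, at -3.78 ± 0.67 (SE; limma adjusted p = 0.0239). Gipc1 had 217 and 209 in Lrig1 Abl, 359 and 375 in Lrig1 CTRL, 313 and 283 in K14 Abl and 229.5 and 227 in K14 CTRL, so both Lrig1 CTRL libraries were the highest. Kdr is also an endothelial marker and had 7.99 and 2.39 in Lrig1 Abl and 71.0 and 78.9 in Lrig1 CTRL. The list had a median log2 difference of 0.14 in K14 and -0.31 in Lrig1, beside -0.0018 and -0.02 over all tested genes.

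Between the CTRL groups, 9 of the 30 were higher in Lrig1 CTRL and 1, the small GTPase Rnd3, was lower, beside 6.52% and 2.27% of all tested genes. The higher ones included the collapsin response mediators Dpysl2, Dpysl3 and Dpysl5. Dpysl5 reached the filter only in Lrig1 libraries, so that the filter itself favoured higher values there. Dpysl3 had 614 and 1712 in Lrig1 Abl, 3165 and 3277 in Lrig1 CTRL, 84.2 and 188 in K14 Abl and 144 and 156 in K14 CTRL, and passed between the CTRL groups (4.42 ± 0.48) and also between the Abl groups, at 3.02 ± 0.48 (SE; limma adjusted p = 0.0419). Every Lrig1 library exceeded every K14 library for Dpysl3. In the mean effect of ablation 1 gene of the list passed, beside 2.83% of tested genes, Rnd3, which was lower at -0.65 ± 0.11 (SE; limma adjusted p = 0.021).

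Of 35 tested Eph and ephrin transducers (39 listed), 0 passed in K14 by limma (9 at an unadjusted p under 0.05, beside 12.8%) and 1, Tiam1, which stands on both lists, was lower in Lrig1 Abl, beside 3.3%. In the mean effect over both populations 2 were higher, beside 0.805% of tested genes, and 1 lower, beside 2.02%. Arhgef16, an exchange factor that binds Epha2, was higher by 1.09 ± 0.17, with 199.7 and 219.7 in Lrig1 Abl, 107 and 93.0 in Lrig1 CTRL, 166 and 263 in K14 Abl and 96.5 and 95.5 in K14 CTRL. All 4 Abl libraries exceeded all 4 CTRL libraries. Inppl1, a lipid phosphatase that also binds Epha2, was higher by 0.59 ± 0.12, and Ngef, an exchange factor activated by Epha4, was lower at -0.87 ± 0.15 (SE; limma adjusted p = 0.0273). Between the CTRL groups 3 were higher and 3 lower in Lrig1 CTRL, beside 6.52% and 2.27%. Of the 3 higher, Arhgef15 reached the filter only in Lrig1 CTRL 2 and K14 Abl 1. The median of the list was 0.09 in K14 and 0.01 in Lrig1.

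Of 20 tested Slit, Robo and netrin family genes (28 listed), 1 was higher in K14 Abl than in K14 CTRL, where 0.187% of tested genes passed in either direction, and 1 was lower in Lrig1 Abl than in Lrig1 CTRL, beside 3.3%. Unc5b, a netrin receptor, was the lower gene and had 377 and 415 in Lrig1 Abl, 797 and 659.7 in Lrig1 CTRL, 350.2 and 329 in K14 Abl and 375 and 383 in K14 CTRL and a difference of -0.87 ± 0.15 (SE; limma adjusted p = 0.0227). Both Lrig1 CTRL libraries again lay above the 6 others. The higher gene was Flrt2, a ligand of Unc5 receptors, with 2.65 ± 0.26. Both also passed in the mean effect, Flrt2 higher, beside 0.805% of tested genes, and Unc5b lower, beside 2.02%. Flrt2 differed by 0.17 ± 0.26 in Lrig1 and Unc5b by -0.16 ± 0.15 in K14, and neither of these passed. Between the CTRL groups 6 genes of the list were higher in Lrig1 CTRL than in K14 CTRL, beside 6.52%. Of these 6, Robo4 reached the filter only in the Lrig1 CTRL libraries, so that the filter itself required a difference. The median of this list was 0.02 in K14 and -0.23 in Lrig1. As for the members, these calls depended on single libraries. Tiam1, Gipc1, Kdr, Unc5b, Rnd3, Arhgef16, Ngef, Inppl1, Flrt2 and the Abl difference of Dpysl3 lost their calls without K14 CTRL 1, without K14 CTRL 2, without Lrig1 CTRL 1 and without Lrig1 CTRL 2, while the CTRL difference of Dpysl3 lost it without Lrig1 CTRL 1 and without Lrig1 CTRL 2. Without K14 Abl 1 the calls of Inppl1, Flrt2 and the Abl difference of Dpysl3 were also lost, as was that of Inppl1 without K14 Abl 2 and that of Dpysl3 between the Abl groups without Lrig1 Abl 2. Tiam1 did not pass with edgeR.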

How the data were processed

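RNA was sequenced from FACS-isolated cells in 8 libraries, 2 per group. Per the submitters' processing notes the tools were Trimmomatic, STAR, Picard and HTSeq 0.11.1 on GRCm38; their settings, the annotation and strand handling are not stated. The deposited signal values are normalised read counts: in each library all are whole multiples of a constant step (100% within 0.001), as reads divided by a size factor give, and reads were recovered from that step. The 4 ablation columns, named Exp in the table, were read as the Abl groups, the only groups left, with 1.1 read as replicate 1.

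Log2(value + 1) was fitted with limma 3.58.1 (R 4.3.3), with a variance trend, as 4 group means over 8 libraries (4 residual and 4.13 prior degrees of freedom), on 18140 genes with at least 1e-06 of the total in at least 2 libraries. P-values were adjusted by Benjamini-Hochberg over those genes, with 0.05 as threshold and no limit on fold; differences of low genes are understated on this scale. Alternatives were other pseudocounts (0.5 and 4) and filters (none, or 5e-06), TMM scaling, array weights, edgeR 4.0.16 and DESeq2 1.42.0 on the recovered reads, a replicate block, and leaving out each library. Replicates of each pair differed by more than sampling noise (chi-square per gene 39.5 in Lrig1 Abl, 2.59 in Lrig1 CTRL, 27.7 in K14 Abl and 1.57 in K14 CTRL). The reported fit nevertheless used 1 spread per gene for all 4 groups. Comparisons of the CTRL groups thus also carry the wider spread of the Abl pairs. Comparisons with Abl groups also draw on the narrower spread of the CTRL pairs, which limits all limma p-values given here. Exon lengths and coordinates came from GENCODE M21 on GRCm38. The fits were tested on simulated data. Members named with full values were those past the threshold in any comparison, the 12 with the highest mean, and the 3 largest differences per comparison at an unadjusted p under 0.05. Members, gene lists (3 of pathway genes and 11 of cell type markers) and alternatives were chosen with earlier results of these data known.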

Additional observations from a re-analysis of the deposited data

How the results depend on the processing

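The text gives 73 differences of single genes, and 1252 alternative fits of them were run. The direction held in these fits except for Nrp1 between the CTRL groups, which ranged from -0.88 to 0.23 when libraries were left out, with the positive value without Lrig1 CTRL 1, and did not pass in the reported fit. Of the fits, 1015 stayed on the same side of the threshold, 182 lost it and 54 gained it. For 8 of the differences, those of Sema3a, Sema3b, Ephb1 and Plxna4, some alternatives left the gene untested. The number of members called in Lrig1 Abl against Lrig1 CTRL was 5 in the reported fit, 3 without a filter, with TMM scaling, with edgeR, with array weights or with a replicate block, and 0 with the Lrig1 libraries alone. In the mean effect it was 3 in the reported fit, 1 without a filter or with edgeR, 6 with DESeq2 and 5 with array weights. Between the CTRL groups it was 13 in the reported fit and 25 with array weights. In K14 Abl against K14 CTRL it was 0 in the reported fit and 2 with DESeq2 or array weights. In the difference of effects it was 0 and with DESeq2 2, and between the Abl groups 0 and with DESeq2 4. In every setting where a count given here rose above the reported fit, more of all tested genes passed as well.

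Leaving out each library in turn gave 0 to 3 called members in K14 Abl against K14 CTRL, 0 to 11 in Lrig1 Abl against Lrig1 CTRL, 0 to 9 in the mean effect, 0 to 9 in the difference of effects, 0 to 20 between the CTRL groups and 0 to 12 between the Abl groups. Wherever more members passed than in the reported fit, more of all tested genes passed too, so these rises are not particular to the members. The lone library left in a group is then assumed to vary like the other groups, and fewer samples are left to estimate the spread. Without either Lrig1 CTRL library Sema3a was no longer tested. Other causes were not tested.

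Replicate numbers gave no clear sign of pairing: deviations from the group means correlated at -0.0491 to 0.0838 between groups, highest for K14 CTRL with K14 Abl. The CTRL pairs held little spread beyond sampling noise compared with the Abl pairs. That limits what this check could show, and a pairing is not excluded. With the replicate block 12 members were called between the CTRL groups and 3 in Lrig1 Abl against Lrig1 CTRL. Members under 3 reads in a library are limited by depth.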

Other observations

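Members that are neighbours in the genome (GRCm38) had unlike patterns in some cases and shared one in others. Sema3d, Sema3a, Sema3e and Sema3c lie in this order between positions 12383385 and 17730268 of chromosome 5. Sema3d was highest in K14 CTRL (1127 and 1183 normalised reads) and Sema3a in Lrig1 CTRL (17.5 and 33.8), while Sema3e was highest in Lrig1 Abl (205 and 302). Sema3c had its highest group mean in K14 CTRL, as Sema3d did, with 1522 and 1577 there. Its highest single value was 1609 in K14 Abl 1, and its lowest was 635 in Lrig1 Abl 2. On chromosome 3, Efna1, Efna3 and Efna4 lie within positions 89271733 to 89338028. Between Lrig1 CTRL and K14 CTRL, Efna3 and Efna4 were higher by 1.43 ± 0.22 and 1.13 ± 0.21 on the log2 scale, and Efna1, at 0.14 ± 0.16, did not pass (limma adjusted p = 0.00959, 0.0163 and 0.644). These patterns were noticed after the values were seen and were not tested as a group.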
